A study of Rattus norvegicus with 3 samples.

Results

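The 61 genes described here encode voltage-gated sodium channels, voltage-gated calcium channels and transient receptor potential (TRP) channels, measured in the hearts of WT, BMD and DMD rats. They were chosen by symbol alone, as the genes whose symbols begin with Scn and a digit, with Cacna, Cacnb, Cacng or Cacnn, or with Trpc, Trpm or Trpv and a digit, and they are 61 of the 22250 genes in the count tables. By family they were 10 sodium channel alpha subunits, 4 sodium channel beta subunits, 9 calcium channel alpha1 subunits, 4 alpha2delta subunits, 4 calcium channel beta subunits, 8 gamma subunits, 6 TRPC, 8 TRPM and 6 TRPV channels. The other 2, Trpc4ap and Trpc5os, carry matching symbols but are not channels. In the nuclei, 40 of the 61 genes had at least 100 unique molecular identifiers (UMIs, the tags that count captured RNA molecules), 19 had 1 to 99, and Cacng5 and Trpc5os had none.

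The series profiled the apex of the heart, with parts of both ventricles and the septum, of rats aged 12 months in 3 genotypes, by single-nucleus RNA sequencing on a droplet platform. WT rats were littermates without the edit. BMD rats (R-BMDdel45-47), a model of Becker muscular dystrophy, carry a CRISPR/Cas9 deletion of exons 45 to 47 of Dmd, the dystrophin gene, which keeps the reading frame, and DMD rats (R-DMDdel52), a model of Duchenne muscular dystrophy, lack exon 52. The deletions are in the germline and so in every cell of the animal, and no agent was given. Each genotype had 1 library and the sources used here do not give the number of hearts in it, so genotype, animal and library cannot be told apart. No test between genotypes was therefore possible, there is no replicate check, and every interval below covers counting error only.

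Voltage-gated sodium channels carry the fast inward current that starts the action potential. Their pore is the alpha subunit, and the beta subunits are single-pass membrane proteins that adjust gating and placement. In the working myocardium the L-type calcium channel lets in the calcium that triggers release from the sarcoplasmic reticulum, and it is assembled from a pore (alpha1), a beta subunit inside the membrane and an alpha2delta subunit outside it. T-type calcium channels open at more negative potentials and are known from pacemaker and fetal heart cells. TRP channels are cation channels gated by lipids, stretch, temperature or intracellular signals, and several of them carry calcium into cells that fire no action potentials.

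Nuclei were the barcodes with the most UMIs, as many per library as the study states, with a median depth of 1212.5 (WT), 1486.5 (BMD) and 1229 (DMD), and 12 to 20 barcodes were shared between each pair of libraries. They were clustered without the 61 genes, and each cluster was named from lists of marker genes. The classes of most use here held 2031, 1524 and 1061 cardiomyocyte-like nuclei, 3517, 1645 and 2255 fibroblast-like nuclei and 1536, 1503 and 1897 endothelial-like nuclei in WT, BMD and DMD. Mural nuclei numbered 700, 447 and 510. They held pericyte-like nuclei (572, 344 and 394) and smooth muscle-like nuclei (31, 59 and 48). The rest were sub-clusters of 109 and 100 nuclei over the 3 libraries, mostly marked as doublets, with endothelial and fibroblast markers raised. The cardiomyocyte list had 9 of its 10 markers in the data. It summed to 20137, 21947 and 22376 CPM (UMI counts scaled to the usual common total for every class and library) in cardiomyocyte-like nuclei. In the other named classes, without the mural doublet sub-clusters, it summed to 1149, 1649 and 1439. Dmd itself was at 16474, 20575 and 19509 CPM in cardiomyocyte-like nuclei, which does not check the genotype labels, since a count of the whole gene does not read the deleted exons. Levels are given as CPM of the UMIs summed over the nuclei of a class, in the order WT, BMD and DMD unless said otherwise. A longer gene can yield more UMIs in nuclei and the levels are not scaled by length, so comparisons are between classes or libraries for the same gene, and levels of different genes set side by side carry no order.

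RNA freed from broken nuclei enters every droplet. Its level in each class was estimated from markers the class should lack, the cardiomyocyte list in other classes and a fibroblast list in cardiomyocyte-like nuclei, and from barcodes with at most 50 UMIs. The cardiomyocyte list was at 407, 740.2 and 652 CPM in fibroblast-like, 699, 1252 and 1096 in endothelial-like and 736, 1639 and 1184 in mural nuclei. It reached 2559, 3821 and 3148 CPM in macrophage-like and 3845, 4214 and 2906 in T or B cell-like nuclei, with all 9 markers present in each of these classes. The expected free RNA level of a gene is given beside some of the results it touches, not all.

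The channel genes took 0.825%, 0.805% and 0.863% of all UMIs in cardiomyocyte-like nuclei and 0.119%, 0.135% and 0.132% in endothelial-like nuclei. Schwann-like nuclei came near the cardiomyocyte share, at 0.835%, 0.760% and 0.610%, and 1 gene, Scn7a, made up most of it. Of the 40 genes with at least 100 UMIs, 20 had their highest CPM in the same class in all 3 libraries, counting mural nuclei as 1 class.

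**Figure D1:**
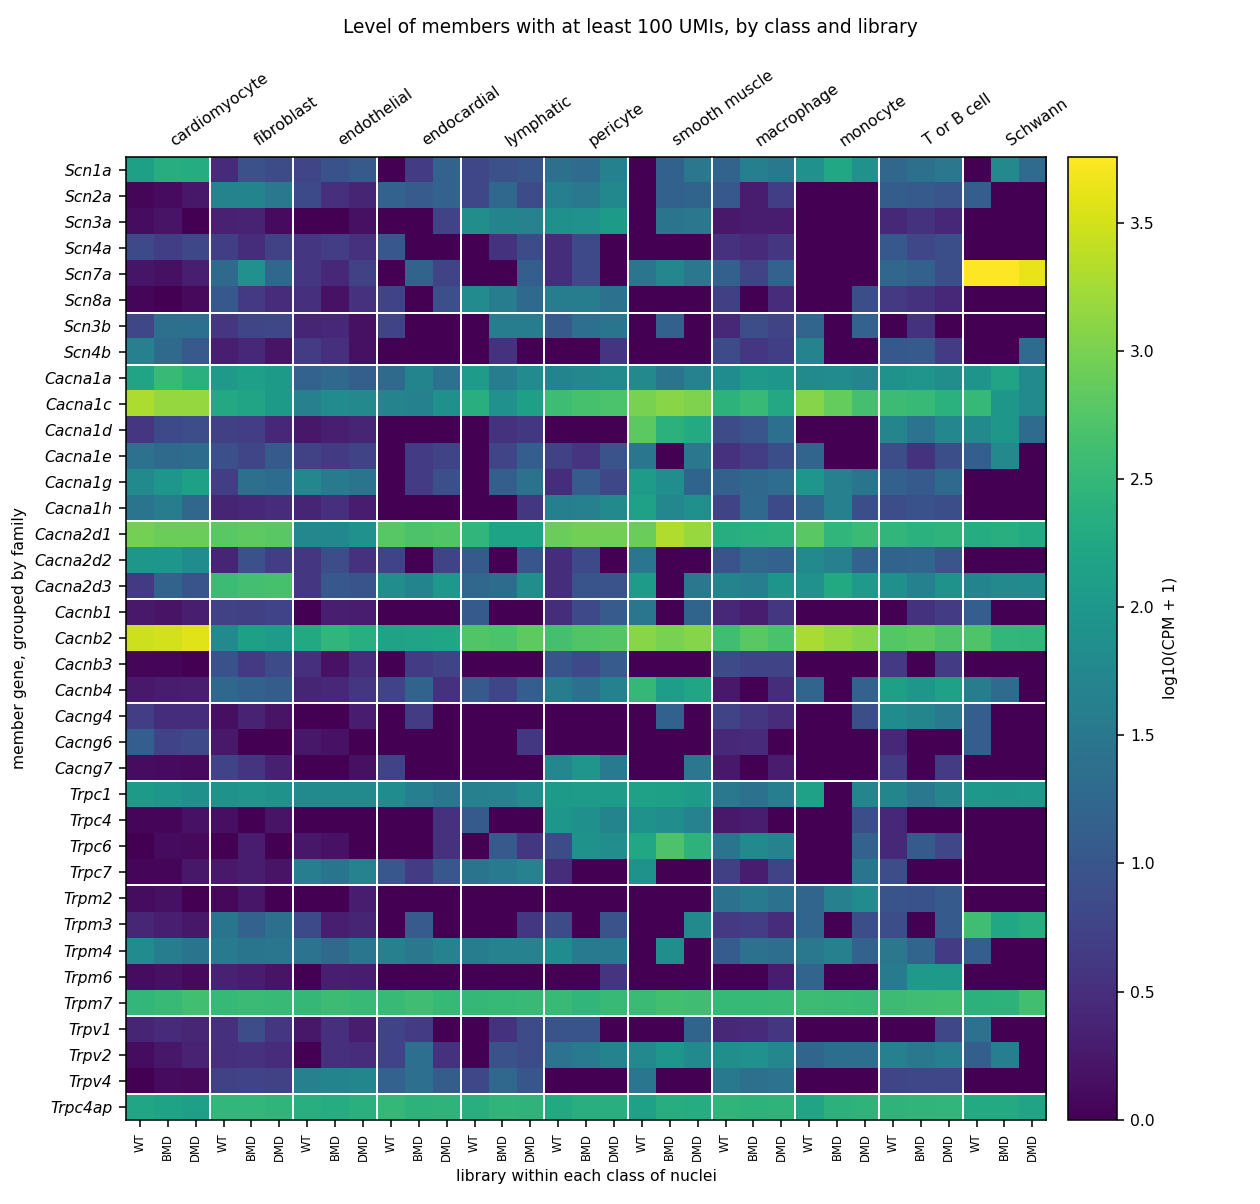
Heat map of genes of the set with at least 100 UMIs (rows, grouped by family) in the classes of nuclei, each with its WT, BMD and DMD library (columns), coloured by level in CPM on a log scale. Cacna1c and Cacnb2 were high in cardiomyocyte-like nuclei, Scn7a in Schwann-like and Cacna2d3 in fibroblast-like nuclei, while Trpm7 was of like level in nearly every column.

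Scn7a, which encodes the atypical sodium channel Nax, was at 5743 (5233 to 6290.4), 5652 (5020.3 to 6342) and 4380.3 (3823 to 4996) CPM (95% intervals) in Schwann-like nuclei, from 464, 290 and 222 UMIs. Only 64, 34 and 31 such nuclei were present, but with each nucleus thinned to 500 UMIs 92.2%, 88.2% and 64.5% of them had a Scn7a UMI, against 0.130%, 0.0665% and 0.211% of endothelial-like nuclei. Fibroblast-like nuclei had Scn7a at 18.6, 78.7 and 17.5 CPM.

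The neuronal pore subunits had other homes. Scn2a was at 46.6, 48.6 and 31.2 CPM in fibroblast-like and 40.8, 31.3 and 54.9 in pericyte-like nuclei, with 1, 2 and 3 UMIs in cardiomyocyte-like nuclei. Scn3a was at 77.3, 79.7 and 109.8 CPM in pericyte-like and 69.9, 48.5 and 46.05 in lymphatic-like nuclei. Scn8a was at 64.5, 38.3 and 18.4 CPM in lymphatic-like nuclei, from 12, 15 and 6 UMIs. In pericyte-like nuclei it was at 36.5, 37 and 24.7 CPM, from 17, 13 and 9 UMIs. Scn1a, which encodes Nav1.1, was highest in cardiomyocyte-like nuclei of all 3 libraries.

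In the RefSeq annotation of GRCr8, used here for gene order, Scn3a lies next to Scn2a, Scn1a next to Scn9a and Scn9a next to Scn7a, with 4 protein-coding genes between Scn2a and Scn1a.

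Among the beta subunits, Scn3b and Scn4b were compared mainly in cardiomyocyte-like nuclei and are described with the genotypes. Scn2b, the neighbour of Scn4b in the annotation, had no UMI in the cardiomyocyte-like nuclei of any library, which allows up to 0.472, 0.452 and 0.777 CPM (3 UMIs).

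Cacna1c, the L-type pore, was at 2006, 1483 and 1469 CPM in cardiomyocyte-like nuclei. Smooth muscle-like nuclei, where the same channel drives contraction, were at 995, 1222 and 1067 CPM and pericyte-like nuclei at 384, 461 and 499.8. Fibroblast-like nuclei were at 187, 156 and 112 CPM against 26.8, 30.3 and 23.7 expected from free RNA. Endothelial-like nuclei, at 42.1, 65.1 and 57.04 CPM, lay near the 46.1, 51.3 and 39.8 that free RNA would give.

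Cacna1d, an L-type pore known from pacemaker cells, was at 654 (415 to 981), 258 (155 to 403) and 195 (104 to 334) CPM (95% intervals) in smooth muscle-like nuclei. These values rest on 23, 19 and 13 UMIs in 31, 59 and 48 nuclei. In cardiomyocyte-like nuclei Cacna1d was at 2.99, 5.87 and 6.73 CPM.

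Cacnb2, the main beta subunit of cardiac L-type channels, was at 2949, 3187 and 3902 CPM in cardiomyocyte-like nuclei, and after thinning 72.3%, 76.1% and 81.4% of those nuclei had a UMI. Smooth muscle-like nuclei had Cacnb2 at 1251, 1018 and 1172 CPM. Pericyte-like nuclei had it at 444, 549.7 and 557 (122, 125 and 107 expected from free RNA). Endocardial-like nuclei had it at 147, 156 and 163, with 72.1, 88.5 and 72 expected. Cacnb4, a beta subunit best known from brain, was at 313, 122 and 165 CPM in smooth muscle-like nuclei. In the cluster with T cell markers (Cd3e, Cd3g, Themis) it was at 144, 112 and 175 CPM. Klrd1 and Ly49s6, known from natural killer cells, were also among that cluster's 10 leading genes, so it may hold more than T cells.

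The alpha2delta subunits, which bring channels to the membrane, differed in their classes. Cacna2d1 was broad, at 940.4, 828 and 815 CPM in cardiomyocyte-like, 616, 659 and 631 in fibroblast-like, 833, 917 and 917 in pericyte-like and 611, 509 and 555 in endocardial-like nuclei. It was lower in endothelial-like nuclei, at 53.9, 55.1 and 79.9 CPM, with 47, 36.1 and 33.6 expected from free RNA. In smooth muscle-like nuclei it was at 825, 2023 and 1518 CPM, from 29, 149 and 101 UMIs.

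Cacna2d3 had its highest level in fibroblast-like nuclei, at 370.4, 431 and 459.6 CPM, against 3.31, 14.9 and 8.54 in cardiomyocyte-like nuclei. After thinning, 14.3%, 15.6% and 17.03% of fibroblast-like and 0.130%, 0.466% and 0.422% of endothelial-like nuclei had a Cacna2d3 UMI. Cacna2d2 went the other way, at 96.2, 94.7 and 66.02 CPM in cardiomyocyte-like and 1.45, 7.53 and 3.79 in fibroblast-like nuclei.

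The gamma subunits were sparse, with 541 UMIs over all 8 genes. Cacng6 was at 12.4, 4.67 and 5.70 CPM in cardiomyocyte-like nuclei. Cacng7, a relative known to regulate AMPA receptors in brain, was at 53.7, 91.1 and 32.95 CPM in pericyte-like nuclei, and Cacng4 was at 66.8, 49.6 and 33.3 in T or B cell-like nuclei. Cacng6, Cacng8 and Cacng7 follow each other in the annotation, and Cacng6 and Cacng7 had their highest levels in different classes.

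TRPC channels open downstream of phospholipase C. Trpc6 had 0, 2 and 1 UMIs in cardiomyocyte-like nuclei and was at 171, 516 and 270.5 CPM in smooth muscle-like nuclei.

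Trpc4 was at 94.5, 76.9 and 49.4 CPM in pericyte-like nuclei. Trpc7 was at 39.2, 28.1 and 46.1 CPM in endothelial-like nuclei, with 1, 1 and 3 UMIs in cardiomyocyte-like nuclei. Trpc1 was broad, at 109, 92.3 and 75.9 CPM in cardiomyocyte-like, 84.4, 91.03 and 82.8 in fibroblast-like and 59.1, 60.1 and 59.5 in endothelial-like nuclei.

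Trpm7, a magnesium and zinc channel fused to a kinase, was close to even. It was at 309, 347 and 418 CPM in cardiomyocyte-like, 327, 363 and 355 in fibroblast-like, 321, 372 and 357 in endothelial-like and 332, 326 and 348 in macrophage-like nuclei. In endocardial-like nuclei Trpm7 was at 355, 409 and 329 CPM, in lymphatic-like at 317, 327 and 341, in pericyte-like at 341, 302 and 346 and in T or B cell-like at 371, 405 and 420.4.

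Trpc4ap, whose protein associates with TRPC4, was also broad, at 306, 304 and 283 CPM in fibroblast-like, 236, 215 and 239.6 in endothelial-like and 164, 149.7 and 130.5 in cardiomyocyte-like nuclei. Its other levels were 313, 271 and 281 CPM in endocardial-like, 237, 286 and 279 in lymphatic-like, 189, 234 and 225 in pericyte-like, 288, 269 and 279.7 in macrophage-like and 275, 287 and 294 in T or B cell-like nuclei. Cardiomyocyte-like nuclei were the lowest of these classes in each library.

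Trpm6 was found mostly in a single class, and Trpm2, Trpm3 and Trpm4 in several. Trpm6, the magnesium channel-kinase known from kidney and gut, was at 269, 550.5 and 378 CPM in the B cell cluster (Ms4a1, Cd79a, Bank1), from 10, 29 and 41 UMIs, and at 0.315, 0.452 and 0.259 in cardiomyocyte-like nuclei. That cluster may hold more than B cells, as described below. Trpm3 was at 408, 175 and 217 CPM in Schwann-like and 28.1, 14.03 and 23.6 in fibroblast-like nuclei. Trpm2, an oxidant-sensitive channel of phagocytes, was at 23.9, 35.7 and 23.97 CPM in macrophage-like nuclei. In monocyte-like nuclei Trpm2 was at 15.6, 42.9 and 63.8 CPM, from 12 UMIs over the 3 libraries. Trpm4, a calcium-activated channel that passes sodium, was at 65.2, 37.9 and 26.7 CPM in cardiomyocyte-like and 66.6, 34.2 and 32.95 in pericyte-like nuclei. In fibroblast-like nuclei Trpm4 was at 32.9, 28.4 and 28.9 CPM.

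Of the TRPV genes, Trpv2 was at 70.2, 79.04 and 53.9 CPM in macrophage-like nuclei and at 0.315, 0.753 and 1.29 in cardiomyocyte-like nuclei. Trpv4, opened by swelling and shear, was at 42.1, 47.97 and 51.6 CPM in endothelial-like nuclei. Within the endothelium Trpv4 was at 111, 92.2 and 171 CPM in the cluster led by Sox17, Gja5 and Bmx, genes of arterial endothelium, and at 27, 34.5 and 30.9 in the cluster led by Aplnr, Fabp4 and Aqp1.

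The 31, 34 and 97 monocyte-like nuclei could not be read for the cardiac channels. The cardiomyocyte list was at 14108, 10219 and 7077 CPM there, in WT above its level of 9002 CPM in near-empty barcodes, and Cacnb2 was at 1908, 1503 and 1191, Cacna1c at 1204, 751 and 447 and Cacna2d1 at 626, 301 and 369 CPM.

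In the other immune classes the cardiac channel genes were read beside free RNA. Cacnb2 was at 397, 617 and 474 CPM in macrophage-like nuclei, with 378, 331 and 293 expected, and at 582, 658 and 515 in T or B cell-like nuclei, with 568, 365 and 270.4 expected. Cacna1c was at 269, 346 and 185 CPM in macrophage-like nuclei, with 169, 157 and 114 expected, and at 377, 345 and 254 in T or B cell-like nuclei, with 254, 173 and 106 expected. Cacna2d1 was at 218, 242 and 262 CPM in macrophage-like nuclei, with 172, 110 and 96.5 expected. In T or B cell-like nuclei it was at 300.4, 248 and 278, with 259, 121.5 and 89.1 expected. In WT the Cacnb2 level was nearly all accounted for by the estimate in both classes.

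The genotypes were then compared in cardiomyocyte-like nuclei. The 19 genes of the set with at least 100 UMIs in this class entered, among 8954 genes in all, the lowest of them with 132 UMIs and the next one outside with 85. A gene was counted as past the fold when its CPM was at least 1.5 times higher or lower than in WT, which is 0.58 on the log2 scale. In BMD 5 of the 19 were higher (7.45% of all genes were) and 3 were lower (8.54%). In DMD 5 were higher (8.71% of all genes) and 4 lower (9.92%). The higher genes were Scn3b, Cacna2d3, Cacna1a, Cacna1g and Scn1a in each mutant library, and the lower ones Scn4b, Trpm4 and Cacng6 in each, with Cacna1h added in DMD. The minimum sums the 3 libraries, for these and for all genes, so a gene low in WT can enter through the mutant libraries. Scn3b (34, 156 and 86 UMIs) and Cacna2d3 (21, 99 and 33) reached it mainly that way. So did Trpc6 in macrophage-like and Trpm6 in T or B cell-like nuclei below. A gene high in 1 library can enter through it likewise. Cacng6 (79, 31 and 22 UMIs) reached the minimum only with its WT UMIs. Below, so did Trpc4 in mural (51, 35 and 22), Cacna1c in lymphatic-like (44, 31 and 45) and Cacna2d3 in T or B cell-like nuclei (46, 17 and 46). Cacna2d3 in macrophage-like nuclei (57, 41 and 88) reached it only with its DMD UMIs. Both comparisons use the same WT library, so they are not independent. The header of the WT matrix names a later Cell Ranger version (6.0.1) than those of BMD and DMD (4). The BMD and DMD counts were also taken from the same aggregate matrix as WT. The numbers of genes past the fold were again 5 higher and 3 lower in BMD and 5 higher and 4 lower in DMD. No entry of those counts was above the separate BMD and DMD matrices, and they held 76.1% and 92.9% of the UMIs. They appear to be a part of the same counts, so the match cannot show whether the version difference matters. The median log2 ratio of the 19 genes was -0.12 in BMD and -0.25 in DMD, beside -0.06 and -0.04 over all genes tested.

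**Figure D2:**
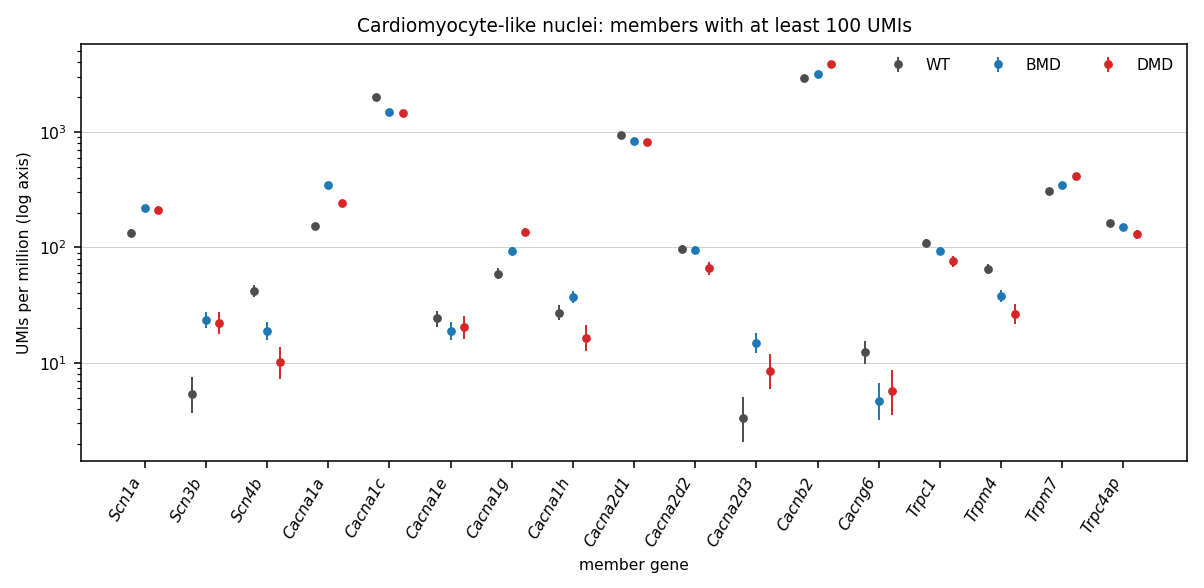
Level in CPM, on a log axis, of genes of the set with at least 100 UMIs in cardiomyocyte-like nuclei, in the WT, BMD and DMD libraries, with exact Poisson 95% intervals as bars. The WT interval stood clear of both others for several genes, among them Scn3b, Scn4b, Trpm4, Cacna1a, Scn1a, Cacna1c and Cacna1g.

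Over the whole class the L-type pore and its core partners stayed within the fold. Cacna1c was at 2006, 1483 and 1469 CPM, log2 ratios to WT of -0.44 (-0.47 to -0.40) in BMD and -0.45 (-0.49 to -0.40) in DMD (95% intervals in parentheses). After thinning, 60.3%, 50% and 49.01% of cardiomyocyte-like nuclei had a Cacna1c UMI, with intervals of 58.1% to 62.5%, 47.5% to 52.5% and 45.96% to 52.1%. The mutant libraries overlapped each other and both lay below WT.

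Cacna2d1, at 940.4, 828 and 815 CPM, had ratios of -0.18 and -0.21. Cacnb2 lay on the other side of 0, with 0.11 (0.08 to 0.14) in BMD and 0.40 (0.37 to 0.44) in DMD. The beta subunit of the L-type channel was therefore above WT in libraries where its pore was below.

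The sodium channel beta subunits parted. Scn3b, in rodents mostly a neuronal form, was at 5.35, 23.5 and 22.3 CPM, from 34, 156 and 86 UMIs. Its log2 ratios were 2.13 (1.59 to 2.71) in BMD and 2.06 (1.47 to 2.67) in DMD, with the mutant libraries overlapping each other. Scn4b, known for its part in resurgent sodium current, was at 41.7, 18.97 and 10.1 CPM, from 265, 126 and 39 UMIs. Its ratios were -1.14 (-1.46 to -0.83) and -2.05 (-2.57 to -1.56), and the CPM intervals of the 3 libraries did not overlap.

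Scn1a was at 134, 217 and 212 CPM, with ratios of 0.70 (0.57 to 0.82) and 0.66 (0.52 to 0.80). Cacna1a, the P/Q-type calcium channel pore of synapses, was at 153, 344 and 241 CPM, with ratios of 1.17 (1.06 to 1.28) in BMD and 0.65 (0.52 to 0.78) in DMD. These pores, best known from neurons, were higher in both mutant libraries than in WT over the whole class, and their levels within its clusters are given below.

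The T-type pores did not go together. Cacna1g was at 59.4, 93.8 and 136 CPM, with ratios of 0.66 (0.47 to 0.85) and 1.20 (1.001 to 1.39). Cacna1h was at 27.2, 37.3 and 16.6 CPM, with a ratio of 0.45 (0.17 to 0.74) in BMD and -0.72 (-1.15 to -0.30) in DMD, on opposite sides of WT.

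Cacna2d3 was at 3.31, 14.9 and 8.54 CPM, from 21, 99 and 33 UMIs, with ratios of 2.17 (1.48 to 2.93) and 1.37 (0.54 to 2.23). Free RNA would give 1.44, 2.20 and 3.23 CPM, and the fibroblast list, with all 9 markers present, was at 149, 107 and 299 CPM in these nuclei. Cacng6 was at 12.4, 4.67 and 5.70 CPM, from 79, 31 and 22 UMIs, with ratios of -1.41 (-2.06 to -0.80) and -1.13 (-1.88 to -0.43).

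Of the TRP genes, Trpm4 had ratios of -0.78 (-1.01 to -0.55) in BMD and -1.29 (-1.62 to -0.98) in DMD, and its 3 CPM intervals did not overlap. Trpm7 had ratios of 0.17 (0.08 to 0.25) and 0.43 (0.34 to 0.53), and Trpc1 of -0.24 (-0.40 to -0.08) and -0.53 (-0.73 to -0.33). Trpc6 and Trpv2 had 0 to 5 UMIs a library, so a difference between genotypes was not detectable at this depth. Also within the fold over the whole class were Cacna1e at -0.37 and -0.25, Cacna2d2 at -0.02 and -0.54, and Trpc4ap at -0.13 and -0.33.

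**Figure D3:**
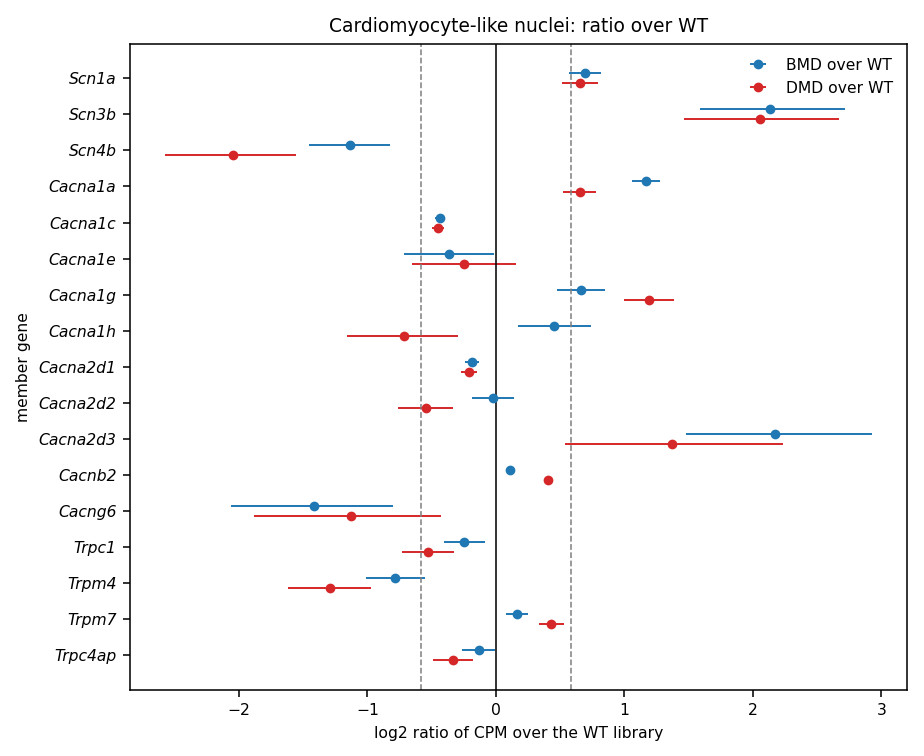
Log2 ratio of CPM to the WT library for the same genes in cardiomyocyte-like nuclei, BMD and DMD side by side, with exact 95% counting intervals and lines at 1.5-fold. Scn3b and Cacna2d3 had the highest ratios and Scn4b in DMD the lowest, at -2.05, Cacna1h lay on opposite sides of 0, and both comparisons share the WT library.

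Between the mutants, 0 of the 19 genes were 1.5-fold higher in DMD than in BMD (5.51% of all genes were) and 3 were lower (5% of all genes). These were Cacna1h at -1.17 (-1.59 to -0.77), Scn4b at -0.91 (-1.47 to -0.38) and Cacna2d3 at -0.80 (-1.42 to -0.22). For Cacna1c the ratio of DMD to BMD was -0.01 (-0.06 to 0.03).

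The cardiomyocyte-like nuclei were not the same mixture in the 3 libraries. At a finer clustering they divided into a cluster with Myh6 among its 10 leading genes and a cluster with Nppa, Nppb, Acta1 and Xirp2 among them. The Nppa-leading cluster held 6.20% of the WT, 55.1% of the BMD and 43.7% of the DMD cardiomyocyte-like nuclei, so the class sums compare different mixtures. The channel genes were left out of the clustering. Their levels in the clusters are given as a description.

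Cacna1g was higher in the Nppa-leading cluster, at 157, 123 and 192 CPM, than in the Myh6-leading cluster, at 51.3, 46.5 and 79.9 CPM. The log2 ratio between clusters was 1.62 (1.23 to 1.98), 1.40 (1.11 to 1.70) and 1.27 (0.99 to 1.55) within the single libraries. Within the Myh6-leading cluster the ratio to WT was -0.14 (-0.46 to 0.17) in BMD and 0.64 (0.35 to 0.92) in DMD, and within the Nppa-leading cluster -0.36 (-0.71 to 0.01) and 0.29 (-0.07 to 0.67). The higher BMD level in the whole class was therefore not seen inside either cluster.

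Cacna1a was at 148, 242 and 180.4 CPM in the Myh6-leading and 226, 407 and 303 in the Nppa-leading cluster. The ratio of BMD to WT was 0.71 (0.56 to 0.86) in the first and 0.85 (0.57 to 1.14) in the second. The ratio of DMD to WT was 0.29 (0.11 to 0.47) and 0.43 (0.13 to 0.74), so the DMD library was past the fold over the whole class but not in either cluster.

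Scn1a was at 129, 212 and 231 CPM in the Myh6-leading and 201, 220.4 and 193 in the Nppa-leading cluster. In the Myh6-leading cluster its ratios were 0.72 (0.56 to 0.88) in BMD and 0.84 (0.67 to 1.01) in DMD. In the Nppa-leading cluster they were 0.13 (-0.17 to 0.45) and -0.06 (-0.38 to 0.28), with both intervals across 0.

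Scn4b was at 41.8, 21.6 and 10.8 CPM in the Myh6-leading and 43.5, 17.6 and 9.47 in the Nppa-leading cluster, with WT highest and DMD lowest in each. Scn3b was at 4.77, 16.03 and 14.3 CPM in the first and 12.4, 27.9 and 30.5 in the second, where the WT value rests on 6 UMIs. The mutants were above WT in both clusters.

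Trpm4 was lower in the Nppa-leading cluster of each library, with log2 ratios between clusters of -0.78, -0.89 and -0.80. It was at 67.7, 53.3 and 33.8 CPM in the Myh6-leading and 39.3, 28.7 and 19.5 in the Nppa-leading cluster. The BMD ratio was -0.35 (-0.64 to -0.06) in the first and -0.46 (-1.16 to 0.33) in the second, so BMD was within the fold in each. The DMD ratios, -1.001 (-1.40 to -0.62) and -1.01 (-1.85 to -0.13), stayed past it.

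The sparser genes past the fold in the class had few WT UMIs in the Nppa-leading cluster, with 9 for Cacna1h and 1 each for Cacna2d3 and Cacng6. In the Myh6-leading cluster Cacna1h in DMD was at -1.19 (-1.87 to -0.56), and in the Nppa-leading cluster at 0.18 (-0.89 to 1.40). In the Myh6-leading cluster Cacng6 was at -1.05 (-1.93 to -0.26) in BMD and -1.11 (-2.13 to -0.23) in DMD, and Cacna2d3 at 0.998 (-0.03 to 2.01) and 0.59 (-0.67 to 1.75), where both Cacna2d3 intervals cross 0.

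Cacna1c was at 2065, 1616 and 1544 CPM in the Myh6-leading and 1302, 1405 and 1395 in the Nppa-leading cluster. The clusters differed most in WT, by -0.67 (-0.78 to -0.55), -0.20 (-0.26 to -0.14) and -0.15 (-0.22 to -0.07) for Cacna1c in WT, BMD and DMD. Within the Nppa-leading cluster Cacna1c was not lower in the mutants than in WT, with ratios of 0.11 (-0.01 to 0.23) and 0.10 (-0.03 to 0.23). The 126 WT nuclei of that cluster gave 629 Cacna1c UMIs. Cacna2d1, within the fold over the whole class, was past it and lower in that cluster. It was at -0.63 (-0.76 to -0.51) in BMD and -0.61 (-0.74 to -0.48) in DMD, against -0.21 and -0.26 in the Myh6-leading cluster. Also past it in the Nppa-leading cluster of DMD were Cacna2d2 at -0.88 (-1.34 to -0.40), Trpc1 at -0.60 (-1.06 to -0.12) and Trpm7 at 0.76 (0.49 to 1.05). Cacna1h in BMD and Cacna1e in both mutants were past it and higher there, from 9 and 4 WT UMIs.

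**Figure D4:**
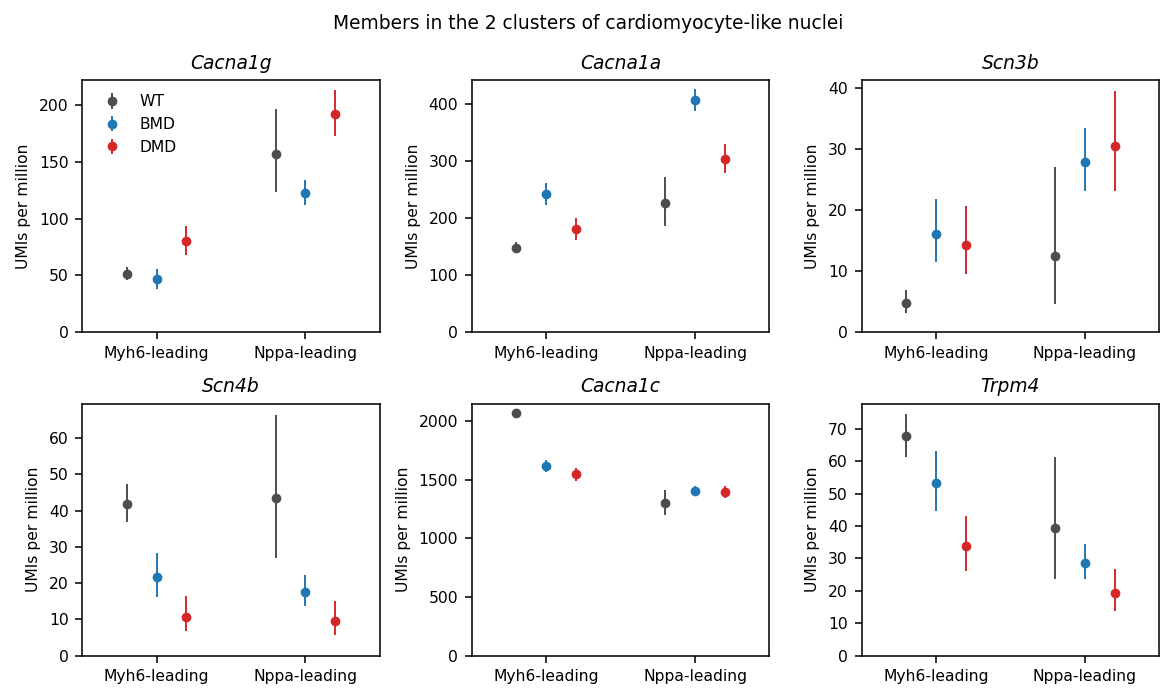
Level in CPM of channel genes in the Myh6-leading and Nppa-leading clusters of cardiomyocyte-like nuclei, by library, with exact Poisson 95% intervals. Cacna1g and Cacna1a were higher in the Nppa-leading cluster of all 3 libraries, and Scn4b was highest in WT in both clusters.

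Sequence before the start sites was read from the RefSeq promoter table (GRCr8), which held 47 of the 61 genes by symbol, with 54 start sites. The 250 bases before each start were searched on both strands. The windows below are of some genes named above that held a match, 5′ to 3′ on the gene's strand, with the motif in capitals. Of the genes past the fold in cardiomyocyte-like nuclei only Scn4b showed a match to any motif searched. Scn4b had the lowest ratio in DMD cardiomyocyte-like nuclei, Cacna2d1 is the broad alpha2delta, Cacna2d2 its cardiomyocyte relative, and Scn7a leads Schwann-like nuclei.
Scn4b, chr8:54343656-54343679, plus strand: gggctcctgCAGCTGgctccaaga
Scn4b, chr8:54343770-54343793, plus strand: ctcccctggCAGCTGcggggccca
Cacna2d1, chr4:20330148-20330171, minus strand: cggcgaccgcAGATAAatcaggga
Cacna2d2, chr8:116951082-116951105, plus strand: cggcgccgcatcttgaaTGGAAAc
Scn7a, chr3:71846420-71846443, minus strand: ttgcctctgCAGCTGggtctctgt

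CAGCTG, an E box and its own reverse complement, was held by 12 of the 54 windows of channel genes and by 12% of the 33469 promoters in the table. AGATAA, read by GATA factors, was held by 3 of 54 and by 10.3% of all promoters. TGGAAA, the NFAT core, was held by 10 of 54 and by 19.7% of all. TATAAA, the TATA box, was held by 3 of 54 and by 12.9% of all. The MEF2 and CArG box motifs had no match in the 54 windows and were held by 2.96% and 1.5% of all. A match describes letters and not a bound site.

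The partners of the channels, genes outside the symbol rule, were read from 3 lists in cardiomyocyte-like nuclei. Of all genes tested there, 7.45% were past the fold and higher in BMD and 8.54% lower, and 8.71% and 9.92% in DMD. The partner levels are for the whole class only, whose mixture of clusters differed between libraries. Of 16 sodium channel partners 12 entered. In BMD Fgf12 (1413, 2201 and 1659 CPM) and Sntb1 (698, 1214 and 1062) were past the fold and higher, and Fgf13 (446, 289 and 448) lower, while in DMD Sntb1 alone was past it. Fgf12 and Fgf13 encode intracellular FGF homologues that bind sodium channel tails, and Sntb1 a syntrophin of the dystrophin complex.

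Of 16 calcium channel partners 6 entered. In BMD Rrad (149, 266 and 154 CPM), a small GTPase that restrains the L-type channel, was higher, and Akap7 and Calm2 were lower. In DMD Jph2 (408, 595 and 669 CPM), a junctophilin that ties the cell membrane to the sarcoplasmic reticulum, was higher and Calm2 was lower. The Calm2 ratios rest on 68, 46 and 22 UMIs. Of 17 TRP and store-operated partners 9 entered, with Stim1 (36.7, 21.4 and 32.4 CPM), the calcium sensor of the reticulum, lower in BMD, and Stim2 higher and Mcoln1 lower in DMD. The Mcoln1 ratio of -0.66 (-1.39 to 0.02) rests on 25 DMD and 65 WT UMIs, and its interval crosses 0.

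In fibroblast-like nuclei 16 genes of the set entered, Cacna1g among them mainly through its UMIs in the mutant libraries. In BMD 4 were higher (5.58% of all genes) and 1 was lower (9.48%), and in DMD 3 were higher (4.81%) and 1 was lower (4.61%). Cacna1g was at 3.93, 23.6 and 20.1 CPM, from 19, 69 and 69 UMIs, with ratios of 2.59 (1.84 to 3.40) and 2.36 (1.61 to 3.17). Free RNA would give 0.833, 3.42 and 3.63 CPM. The class held a larger cluster of 3264, 1115 and 1847 nuclei and a smaller one of 253, 530 and 408. Its sums therefore compare different mixtures. Cacna1g was at 3.66, 19.5 and 16.1 CPM in the larger cluster. It was at 6.46, 30.6 and 34.3 in the smaller one, led by Ltbp2, Tnc and Ccl2, where WT had 3 UMIs. The mutant libraries lay above WT in both.

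Scn7a stood apart in BMD, at 18.6, 78.7 and 17.5 CPM from 90, 230 and 60 UMIs, against 1.46, 0.892 and 0.796 expected from free RNA. Its BMD ratio was 2.08 (1.72 to 2.45) and its DMD ratio -0.09 (-0.59 to 0.40). In the larger cluster Scn7a was at 19.2, 98.2 and 14.2 CPM and in the smaller one at 12.9, 45.4 and 28.99. Cacna1c was past the fold and lower in DMD, with a ratio of -0.74 (-0.92 to -0.57), and Trpm3 in BMD, with -1.004 (-1.54 to -0.49). Both are given for the whole class only, whose mixture of clusters differed between libraries.

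Cacnb2, past the fold and higher in both mutants, has its highest level in cardiomyocyte-like nuclei. In fibroblast-like nuclei it was at 61.2, 136 and 113 CPM, with 60.1, 64.1 and 60.7 expected from free RNA, so WT lay at the free RNA level and the mutants above it. The cardiomyocyte list was also higher in both mutants, as given above, and its part in the ratios was not tested. Cacna1a, at 106, 133 and 109 CPM, was within the fold.

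In endothelial-like nuclei 12 genes entered. In BMD 3 were higher (4.22% of all genes) and 1 was lower (6.93%), and in DMD 1 was higher (4.57%) and 1 lower (3.18%). The lower gene was Cacna1g, at 54.7, 33.1 and 26.8 CPM, with ratios of -0.72 (-1.24 to -0.21) and -1.03 (-1.56 to -0.50). In the cluster led by Aplnr it was at 49.5, 20.1 and 21.5 CPM and in the Sox17 cluster at 78.3, 75.6 and 57.04. Over whole classes the gene was thus above WT in cardiomyocyte-like and fibroblast-like nuclei of both mutants and below it in endothelial-like nuclei. This difference between classes was not tested. In BMD the higher cardiomyocyte-like level was not seen inside either cluster, as given above.

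Cacnb2 was past the fold and higher in BMD endothelial-like nuclei. It was at 189, 299 and 231 CPM, with 103, 108 and 102 expected from free RNA. Cacna1c in BMD, at a ratio of 0.63 (0.16 to 1.11), was no longer past the fold with a floor of 500 UMIs, with doublets removed or as a mean over nuclei. In the run with that floor doublets were not marked. A cluster of 450 nuclei with endothelial and fibroblast markers raised then counted as endothelial-like. The part of cardiomyocyte RNA in these ratios was not tested. Cacna2d1, at 53.9, 55.1 and 79.9 CPM, was within the fold, with 47, 36.1 and 33.6 expected from free RNA.

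In mural nuclei, with the doublet sub-clusters included, 11 genes entered, Trpc6 among them mainly through its UMIs in the mutant libraries. In BMD 1 was higher (5.28% of all genes) and 0 were lower (6.69%), and in DMD 1 was higher (5.15%) and 1 was lower (5.08%). Trpc6 was at 19.2, 139 and 81.7 CPM, from 13, 72 and 48 UMIs, with ratios of 2.85 (1.99 to 3.83) and 2.09 (1.18 to 3.10), and free RNA would give 0.260, 0.165 and 0.482 CPM. In pericyte-like nuclei alone it was at 6.44 (1.33 to 18.8), 82.6 (55.3 to 119) and 68.6 (44.4 to 101) CPM, from 3, 29 and 25 UMIs, so the mutants were higher there too. Trpc4 was lower in DMD, at 75.4, 67.5 and 37.4 CPM, with a ratio of -1.01 (-1.80 to -0.26). It had 51, 35 and 22 UMIs and entered only with those of WT.

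**Figure D5:**
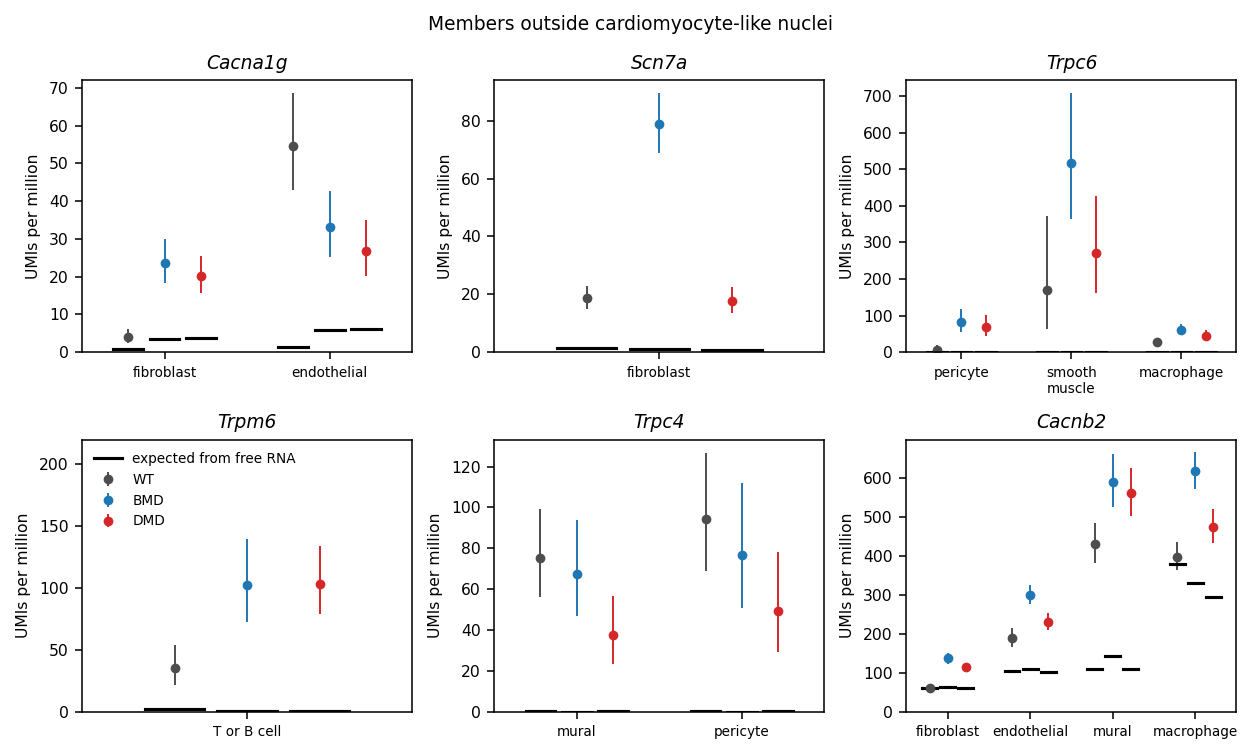
Level in CPM of channel genes in classes other than cardiomyocyte-like, by library, with exact Poisson 95% intervals and marks at the level expected from free RNA. Cacna1g and Scn7a in fibroblast-like nuclei, Trpc6 in pericyte-like nuclei and Trpm6 in T or B cell-like nuclei lay above those marks in the mutant libraries where they differed from WT.

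Smaller classes gave fewer genes. In macrophage-like nuclei 3 of 11 genes were past the fold in BMD (15.9% of all genes, either direction) and 2 in DMD (15.9%). Trpc6 was at 27.2, 59.8 and 44.9 CPM, from 33, 62 and 45 UMIs, with ratios of 1.13 (0.50 to 1.79) and 0.72 (0.04 to 1.42), and free RNA would give 0.902, 0.384 and 1.28 CPM. With doublets removed the DMD ratio was no longer past the fold. Cacna1a and Cacnb2 in BMD were not past it in 3 and 4 of 10 alternatives, and Cacna2d3 in DMD had a ratio of 0.90 (0.40 to 1.41). In endocardial-like nuclei 0 of 4 genes were past the fold in BMD (16.7% of all genes) or in DMD (11.7%).

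In lymphatic-like nuclei 3 of 6 genes were past the fold in BMD (16.3% of all genes) and 2 in DMD (13.6%), all lower. Cacna1c was at 237, 79.1 and 138 CPM, with 147, 57.2 and 95.4 expected from free RNA, and Cacna2d1 at 301, 151 and 150.4, with 149.7, 40.2 and 80.5 expected. With doublets removed Cacna1c in DMD and Cacna2d1 in BMD were no longer past the fold. Cacnb2, at 538, 500.1 and 663 CPM, was within the fold, with 329, 121 and 244 expected from free RNA. With free RNA subtracted it was at 278, 416 and 560.5 CPM, where DMD was past the fold and higher than WT. The cardiomyocyte list was at 2226, 1396 and 2625 CPM there, lowest in BMD as Cacna1c was, and its part was not tested.

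In T or B cell-like nuclei 2 of 10 genes were past the fold in BMD (14.3% of all genes) and 2 in DMD (12.9%). Trpm6 was at 35.05, 102 and 103 CPM, from 21, 39 and 59 UMIs, with ratios of 1.54 (0.74 to 2.38) and 1.56 (0.82 to 2.35). The class joins a B cell cluster of 30, 44 and 76 nuclei and the cluster with T cell markers, of 450, 264 and 341. The share of the B cell cluster therefore differed between libraries. Bglap and Ibsp were also among its 10 leading genes, so it may hold more than B cells. At the finer clustering the B cell cluster had 29, 43 and 54 nuclei, without these genes among its leading ones. Within the B cell cluster the intervals of Trpm6 overlapped, from 129 to 495 CPM in WT, 369 to 791 in BMD and 271 to 513 in DMD. With a floor of 500 UMIs the BMD ratio of Trpm6 in the class was 0.51, no longer past the fold. In that run Ighm, Bank1 and Pax5 were among the leading genes of a cluster of 264 nuclei named Schwann-like. The T or B cell-like class of that run thus left out nuclei with B cell markers, and their part was not tested. Cacna2d3 was past the fold and lower in BMD, with a ratio of -0.79 (-1.69 to 0.04), which became -0.34, within the fold, with doublets removed.

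The 21 genes under 100 UMIs in all nuclei were led by Trpc5 with 78, of which 42 were in endocardial-like nuclei at 47.4, 22.3 and 62.5 CPM. Trpm1, Cacng8, Scn9a, Trpv3, Cacna1b, Scn11a, Trpm8 and Trpm5 had 20 to 51 UMIs. Scn2b, Scn10a, Cacng2, Cacng1, Cacna2d4, Cacng3, Cacna1s, Cacna1f, Trpv6 and Trpv5 had 1 to 17, among them Cacna1s, the pore of the skeletal muscle L-type channel, with 6.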

How the data were processed

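Nuclei sorted by DAPI were profiled by 10x Genomics single-nucleus RNA sequencing (a 3′ kit per the labels and methods, though the paper's text elsewhere names 5′), 1 library per genotype. The deposited matrices hold UMI counts, made by the authors with Cell Ranger (rn6 in the submitters' processing notes). The header of the WT matrix names version 6.0.1 and those of BMD and DMD version 4. The gene annotation and the intron setting are not given in the sources used here. WT counts came from a matrix that aggregates the 3 libraries, and BMD and DMD counts from their own matrices. In the aggregate, BMD and DMD had 76.1% and 92.9% of the UMIs of their own matrices, with no entry above them. The aggregate was therefore reduced in depth for these 2 libraries. Whether WT was reduced in it as well could not be seen, since WT has no separate matrix. Whether reads were counted with different versions in WT and the mutants was not tested. An alternative chosen after seeing the data takes all 3 libraries from the aggregate. The barcodes with the most UMIs were clustered with scanpy 1.11.5 (2000 variable genes without the 61, 30 components, Leiden resolution 0.5). Scrublet doublets were marked, and clusters of mostly doublets stayed unnamed. Sub-clusters of mostly doublets within the mural cluster were left out of pericyte-like and smooth muscle-like nuclei but kept in the mural class. UMIs were summed per class and library. Exact Poisson, binomial and Clopper-Pearson 95% intervals (scipy 1.17.1) cover counting error only. Calls needed 100 UMIs over the 3 libraries and a fold of 1.5, and the script was tested on simulated data. Alternatives changed the nuclei, doublets, clustering, scaling (edgeR 4.0.16), minimum, fold and free RNA. Named genes were the 6 with the most UMIs in each class, those past the fold and preset subunits. Other genes were named after their values were seen, and some genes of the set and of the partner lists are counted but not reported here. The members and lists were chosen with earlier results of these data known.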

Additional observations from a re-analysis of the deposited data

Results flagged for a closer look

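Some genes lay on opposite sides of WT in different classes of nuclei. The differences between classes were not tested, since each genotype had 1 library. Cacna1g in BMD had log2 ratios to WT of 0.66 in cardiomyocyte-like and 2.59 in fibroblast-like nuclei and of -0.72 in endothelial-like nuclei. Its BMD ratio was -0.14 (-0.46 to 0.17) in the Myh6-leading and -0.36 (-0.71 to 0.01) in the Nppa-leading cluster, so BMD was not above WT in either. In the Sox17 endothelial cluster the BMD level of Cacna1g lay near WT. Cacna1g in DMD had ratios of 1.20 in cardiomyocyte-like and 2.36 in fibroblast-like nuclei and of -1.03 in endothelial-like nuclei. Its DMD ratio was 0.64 (0.35 to 0.92) in the Myh6-leading and 0.29 (-0.07 to 0.67) in the Nppa-leading cluster. Cacna1c in BMD was at 0.63 in endothelial-like and -1.58 in lymphatic-like nuclei. Cacna1c in endothelial-like and lymphatic-like nuclei had levels within 2 times those expected from free RNA, whose part was not tested.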

How the results depend on the processing

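No paired analysis was possible because each genotype had 1 library. Single ratios past the fold were followed through the alternatives, leaving out all nuclei of the library, the changed minimum and the fold of 2. Runs in which a ratio could not be computed were left out too. Of 43 such ratios among the genes reported here, 35 stayed past 1.5-fold in the same direction in every run counted. All 43 kept their sign in those runs. No run compared the libraries within the Myh6-leading and Nppa-leading clusters. Cacna1g and Trpm4 in BMD and Cacna1a in DMD are among the 35, though within the fold in each of those clusters. In cardiomyocyte-like nuclei the 5 genes higher in BMD became 8 over all nuclei of the library, 14 with no minimum and 3 at a fold of 2, and the 3 lower became 7 over all nuclei and 8 with no minimum. The 5 higher in DMD became 23 with no minimum and 3 at a fold of 2, and the 4 lower became 10 over all nuclei and 7 with no minimum. With no minimum 48 genes entered in DMD and their median log2 ratio was 0.42 instead of -0.25. Over fibroblast-like, endothelial-like and mural nuclei and both mutants, the 13 higher calls became 5 with a minimum of 200 UMIs, 56 with no minimum and 7 at a fold of 2, and the 5 lower became 2, 41 and 3. The cause was not tested, other than that no minimum lets in more genes. Depth limits the genes with few UMIs, which have wide intervals.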
